A study of Homo sapiens with 30 samples.

Results

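The 40 histone genes described here are those whose symbols in the deposited table begin with HIST1H, HIST2H, HIST3H or HIST4H (29 clustered replication histone genes, 18 on chromosome 6 and 11 on chromosome 1) or with H1F, H2AF, H2BF or H3F (11 histone variant genes), out of 16975 listed genes. Pseudogenes and antisense genes were left out: H3F3BP1, H3F3AP4, H3F3AP6 and HIST1H3PS1 by symbol, HIST2H2BC by its type in RefSeq, and H1FX-AS1 as antisense. Transcript ends were sequenced (3' RNA-seq) in 10 groups of 3 libraries of cultured human embryonic kidney cells collected at about 70% confluency with no treatment. HEK28 is a HEK293 line that secretes coagulation factor VIII (F8), and the study asked how single knockouts change that secretion. The groups were HEK28, the parental HEK line (labelled HEKpar), and 8 CRISPR knockouts made in HEK28, each of 1 gene: the lectin chaperones CANX and CALR, the cargo receptor subunits LMAN1 and MCFD2, and the autophagy genes ATG7, GABARAP, GABARAPL1 and GABARAPL2. All 8 knockouts derive from HEK28, so a difference between a knockout and the parental line may have been present in HEK28 before the knockout. The labels do not say whether a knockout is 1 clone or whether the 3 libraries of a group come from separate cultures, so the p-values below measure the spread between these libraries, which may be technical.

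Histones package DNA into nucleosomes. The clustered replication histone genes are transcribed mainly in S phase, when new DNA needs new H2A, H2B, H3 and H4, and most of their mRNAs end in a stem-loop, bound by SLBP, in place of a poly(A) tail. Variant histone genes lie outside the clusters and are used outside replication as well. Most of their mRNAs, though not all for every gene, carry poly(A) tails. H3F3A and H3F3B encode H3.3, H2AFZ and H2AFV encode H2A.Z, and H2AFX encodes the DNA-damage variant H2A.X. H2AFY and H2AFY2 encode macroH2A, and H1F0 encodes the linker histone typical of cells that divide slowly. How the 3' libraries were primed is not given in the sources used here, so the counts compare libraries and not the share of histone mRNA that the assay captured.

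Promoters are shown for 4 clustered genes on which comparisons below turn. HIST2H2AC and HIST2H2BE are transcribed away from each other out of 1 shared stretch (chr1:149886683-149886917, + strand, GRCh38.p14, RefSeq), and their estimates in the CALR knockout have opposite signs. Against the other 7 knockouts HIST2H2BE passed the test and HIST2H2AC did not, while against HEK28 HIST2H2AC passed (-2.07 ± 0.40, adjusted p = 0.00114, limma) and HIST2H2BE did not (1.97 ± 0.78, adjusted p = 0.0805). Without HEK28 libraries 1 and 2 the HIST2H2AC difference against HEK28 was -0.71. Its call was also lost when limma was fitted only to the libraries compared. The difference between the genes was not tested. HIST1H1C (chr6:26056471-26056720, - strand) and HIST2H4A (chr1:149832407-149832656, + strand) are shown by the 250 bases before their starts. Capitals mark matches, on either strand, to the TATAA box, the inverted or direct CCAAT box, the octamer motif spelled ATTTGCAT and the H1 box spelled AAACACA. Matches that overlap, as a TATAA box and its reverse complement do, are shown as 1 stretch.
HIST2H2AC-HIST2H2BE: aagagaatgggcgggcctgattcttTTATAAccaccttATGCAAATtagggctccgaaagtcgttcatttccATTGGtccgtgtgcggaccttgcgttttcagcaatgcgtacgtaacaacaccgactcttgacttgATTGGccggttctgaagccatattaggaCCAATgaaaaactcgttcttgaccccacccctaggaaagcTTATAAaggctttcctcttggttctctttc
HIST1H1C: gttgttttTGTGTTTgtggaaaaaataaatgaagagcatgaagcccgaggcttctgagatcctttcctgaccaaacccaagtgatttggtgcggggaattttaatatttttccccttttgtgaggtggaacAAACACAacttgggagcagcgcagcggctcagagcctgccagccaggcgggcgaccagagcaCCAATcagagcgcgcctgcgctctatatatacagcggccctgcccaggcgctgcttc
HIST2H4A: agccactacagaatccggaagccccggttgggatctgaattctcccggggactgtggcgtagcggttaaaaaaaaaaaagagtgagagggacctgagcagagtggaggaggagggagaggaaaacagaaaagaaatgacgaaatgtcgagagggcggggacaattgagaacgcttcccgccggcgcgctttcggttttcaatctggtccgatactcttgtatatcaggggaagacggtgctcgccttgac
The shared stretch of 235 bases held 2 TATAA stretches, near its ends, 3 CCAAT matches and 1 octamer. The HIST1H1C promoter held 2 H1 boxes and 1 CCAAT. The HIST2H4A window held none of the 4 motifs, and the 300 bases around the starts of HIST2H4A and HIST2H4B differed at 0 positions. Promoter windows were found for 34 of the 40 members. The octamer was in 9 of the 25 clustered genes with a window, against 1.63% of 35116 windows of the same length, TATAA was in 20 of the 25 against 18.9%, and CCAAT was in 19 of the 25 against 32.0%. Windows of divergent gene pairs overlap: HIST2H2AC with HIST2H2BE, HIST1H2AC with HIST1H2BC, HIST1H2AG with HIST1H2BJ and HIST3H2A with HIST3H2BB. A match in the overlap counts for both genes of a pair, so these counts are not of separate stretches. A gene with several windows was counted when any of them matched, as HIST1H3E was for TATAA. The shares over all windows count each window by itself, so the 2 measures are not quite alike. The H1 box was in 2 of the 25, HIST1H1C and HIST1H1E, both linker histone genes, against 4.82% of all windows. These are too few genes to set apart from that share. It was also in 1 of the 9 variants with a window, H3F3A, and not in the linker histone variant H1FX. These are matches of letters and show no binding.

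Total reads per library ran from 180015 to 4563580, with a median of 725569, and the HEK28 and parental libraries, at 180015 to 711434, were all below that median. F8 was at log2 levels of 8.95 to 9.43 in HEK28 and 9.68 to 10.87 in the knockouts, against 2 reads in all in the parental line. Of 8 markers of HEK293 cells 7 were abundant enough to test, and together the 8 made up 3800 to 8650 RPM (reads-per-million, that is reads scaled to one common library size). Of these 7, 4 also differed from the parental line by limma, where 37.2% of all genes passed for the 8 knockouts and 31.7% for HEK28. In the 8 knockouts NEFL was 1.52, VIM 1.20 and NEFM 0.42 higher and KRT18 fell by 1.25. In HEK28 NEFL was 1.82, VIM 1.45 and NEFM 0.98 higher and KRT18 fell by 1.38. Their part in the histone results was not tested. Of 10 markers of blood, liver, fibroblast and endothelial cells the 6 that the table lists together made up 11.0 to 94.4 RPM. The RNA of the targeted gene was below every other knockout library in the CANX, CALR, LMAN1 and MCFD2 knockouts. For GABARAP, GABARAPL1, GABARAPL2 and ATG7 the libraries overlapped and adjusted p-values from limma were 0.101 to 0.482; 3' tags need not fall with a disrupted reading frame. Libraries 1 and 2 of HEK28 stood apart from library 3 in several histone genes, and library 2 of the LMAN1 knockout stood apart from its group in some of the same genes, so results that rest on them are given without them as well.

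Log2 levels below are log2 of RPM on the authors' library scaling, with 0.5 added to each read count. They compare 1 gene between libraries. Because each transcript gives tags near 1 end, summed RPM are also given, without division by length. Tests were limited to genes that reached 13.8 RPM in 3 or more libraries and had a total of 15 reads or more, which kept 17 clustered genes, 10 variants and 11374 genes in total. The 12 untested clustered genes (HIST2H2BF, HIST2H3C, HIST3H2BB, HIST1H2AC, HIST1H4E, HIST1H3E, HIST1H2BJ, HIST1H4I, HIST1H2AH, HIST1H3H, HIST1H4J and HIST1H4K) had 37 to 188 reads each over all 30 libraries, and the untested variant H2BFM had 58.

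One gene made up most of the clustered signal. HIST1H4C (ENSG00000197061, chr6:26103876-26104310, + strand, GRCh38), which encodes histone H4, held 76757 of the 104925 clustered histone reads, and its share of the clustered reads of a library ran from 54.3% to 80.4%. Summed over the 29 clustered genes, the parental libraries had 932, 963 and 1130 RPM (1010 ± 108, SD, n = 3). HEK28 had 7410, 6640 and 3840, and the 24 knockout libraries had 1760 to 6650 with a median of 3230. Every HEK28 and knockout library was thus above every parental library. Among the knockouts the sum was lowest in GABARAPL2 (1840 ± 67.6, SD, n = 3) and MCFD2 (2180 ± 381) and highest in CANX (4330 ± 285) and LMAN1 (5100 ± 1340, with library 2 at 6650 and the other two at 4210 and 4460). Without HIST1H4C the clustered sum was 498 ± 8.14 in GABARAPL2, the lowest knockout mean, and 1110 ± 165 in LMAN1, the highest, against 346 ± 22.1 in the parental line. The 11 variants together ranged far less, from 3690 to 5110 RPM over all 30 libraries. In bulk RNA, a larger share of cells in S phase and more histone RNA per cell cannot be told apart. Whether the assay captured the same share of this RNA in each line was not tested.

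**Figure D1:**
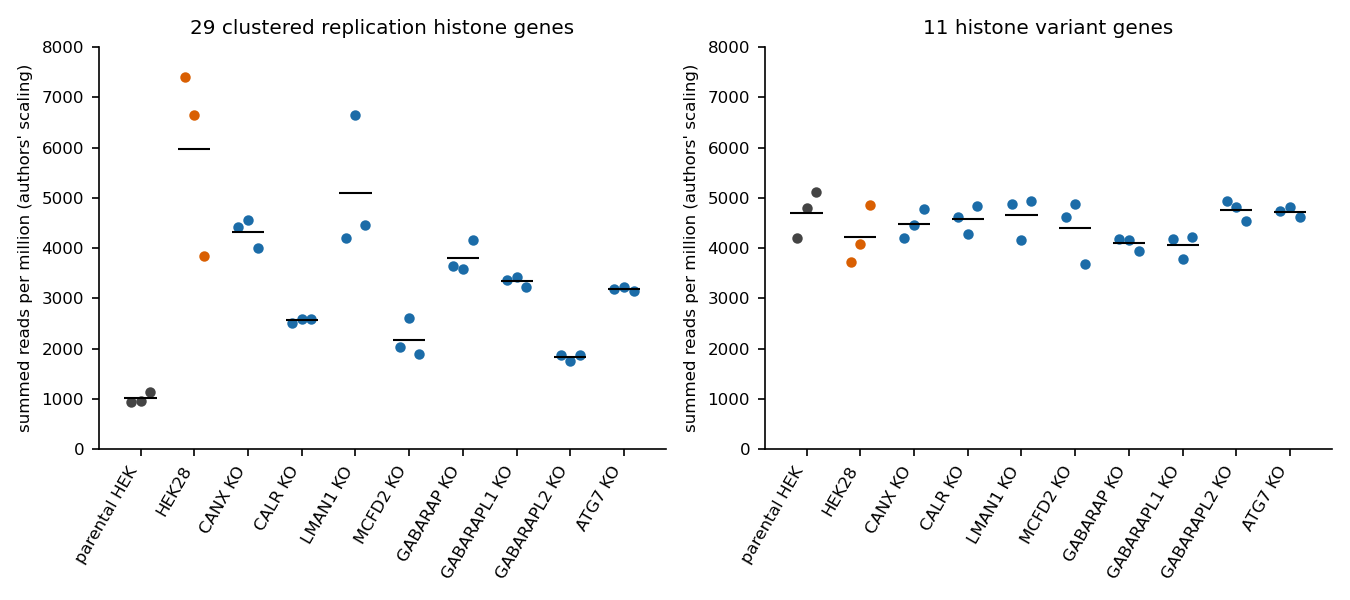
Summed RPM of the clustered genes (left) and the variants (right); each point is a library and each short line the mean of the 3 libraries of a group, with the parental line in grey, HEK28 in orange and the knockouts (KO) in blue. All 27 HEK28 and knockout libraries are above the 3 parental libraries in the clustered sum, while the variant sums of all groups overlap the parental range of 4210 to 5110 or lie close below it.

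Between all knockouts and the parental line, 9 of the 17 tested clustered genes passed the test, 8 higher and 1 lower in the knockouts, and 6 of the 10 tested variants passed, 3 in each direction. Over all 11374 genes 37.2% passed in this comparison, 23.8% higher and 13.3% lower. The median log2 difference was 1.19 over the tested clustered genes and 0.07 over the variants, against 0.09 over all genes. The split of all calls depended on the scaling, with 2711 higher and 1518 lower here, 2264 and 2017 after quantile normalisation, and 1818 and 1928 with voom weights.

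Histone H4 and the linker histones gave the best measured differences. HIST1H4C was at log2 levels of 9.26, 9.23 and 9.61 in the parental libraries and at 10.00 to 12.38 (median 11.28) in the 24 knockout libraries. The groups did not overlap, and HIST1H4C was 1.76 ± 0.16 higher in the knockouts on the log2 scale (SE, 3.39-fold, adjusted p = 5.85e-09, limma). HIST1H1C (ENSG00000187837, chr6:26055787-26056428, - strand), which encodes linker histone H1.2, was at 6.85, 7.13 and 6.79 in the parental line and at 7.95 to 9.65 (median 9.05) in the knockouts. Every knockout library was above the parental ones, with a difference of 2.08 ± 0.09 (4.22-fold, adjusted p = 5.29e-14, limma). HIST1H1E, which encodes linker histone H1.4, was at 2.76, 3.91 and 3.90 in the parental libraries, the first of them 1 read, and at 4.19 to 6.00 in the knockouts (difference 1.64 ± 0.27, adjusted p = 3.8e-05, limma).

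The H2A genes of the chromosome 1 cluster were higher as well. HIST2H2AC was at 2.76, 3.91 and 3.90 in the parental line and at 4.78 to 6.64 (median 5.62) in the knockouts, again without overlap, a difference of 2.15 ± 0.30 (4.45-fold, adjusted p = 4.07e-06, limma). HIST2H2AA3 and HIST2H2AA4, near-identical copies between which the counting may have split reads (1271 and 1299 in all), were 1.70 ± 0.28 and 1.20 ± 0.28 higher. HIST2H2AB rested on 1 read in the parental line against 425 in the knockouts, a ratio of 19.3 with a 95% exact counting interval of 3.44 to 763, and adjusted p = 0.000561 by limma. The H2B gene HIST1H2BC was 1.15 ± 0.34 higher with overlapping libraries; with voom weights its adjusted p was 0.22, and it also lost the call without parental library 1 or without parental library 2.

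HIST1H2BD was the clustered gene that passed in the other direction. This H2B gene had 4, 6 and 14 reads in the parental libraries (log2 levels 4.35, 3.91 and 4.23) and was at 0.73 to 3.98 (median 2.58) in the knockouts. Only the highest knockout library, LMAN1 library 2, reached into the parental range, and the gene fell by 1.71 ± 0.43 in the knockouts (adjusted p = 0.00329, limma). Another 4 clustered genes had estimates below 0 that did not pass: HIST2H2BE at -0.27 ± 0.58 (adjusted p = 0.75), HIST1H2BN at -0.91 ± 0.36 (adjusted p = 0.0503), HIST3H2A at -0.77 ± 0.32 (0.059) and HIST1H2AG at -0.39 ± 0.36 (0.411), all by limma.

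Among the variants, H1F0 gave the largest difference from the parental line. H1F0 (ENSG00000189060, chr22:37805093-37807436, + strand) was at 8.23, 8.59 and 8.85 in the parental libraries and at 4.75 to 7.52 (median 6.52) in the knockouts, with no overlap, and fell by 2.16 ± 0.27 (4.46-fold lower, adjusted p = 8.67e-07, limma). This is the reverse of HIST1H1C and HIST1H1E, the linker histone genes of the cluster. H2AFY was 1.10 ± 0.19 higher (adjusted p = 9.08e-05, limma), at 6.13, 6.65 and 6.09 in the parental line and 6.48 to 8.16 in the knockouts. H2AFY2, the other macroH2A gene, was 1.23 ± 0.25 higher (adjusted p = 0.000465, limma), but with voom weights its adjusted p was 0.0901. The remaining 3 that passed moved little: H1FX by 0.41 ± 0.15, H3F3B by -0.38 ± 0.11 and H2AFV by -0.37 ± 0.12. Each of these 3 lost the call without 1 parental library (H1FX and H3F3B without library 2, H2AFV without library 3), and H1FX also with voom weights or after quantile normalisation. H2AFX, H2AFZ, H3F3A and H3F3C did not pass, with estimates of 0.38 ± 0.46, 0.50 ± 0.29, -0.23 ± 0.12 and -0.58 ± 0.40. H3F3A, H3F3B and H3F3C share sequence with one another and with processed pseudogenes (H3F3AP4 was given 4285 reads, H3F3AP6 2586 and H3F3BP1 2399), so their values are uncertain.

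**Figure D2:**
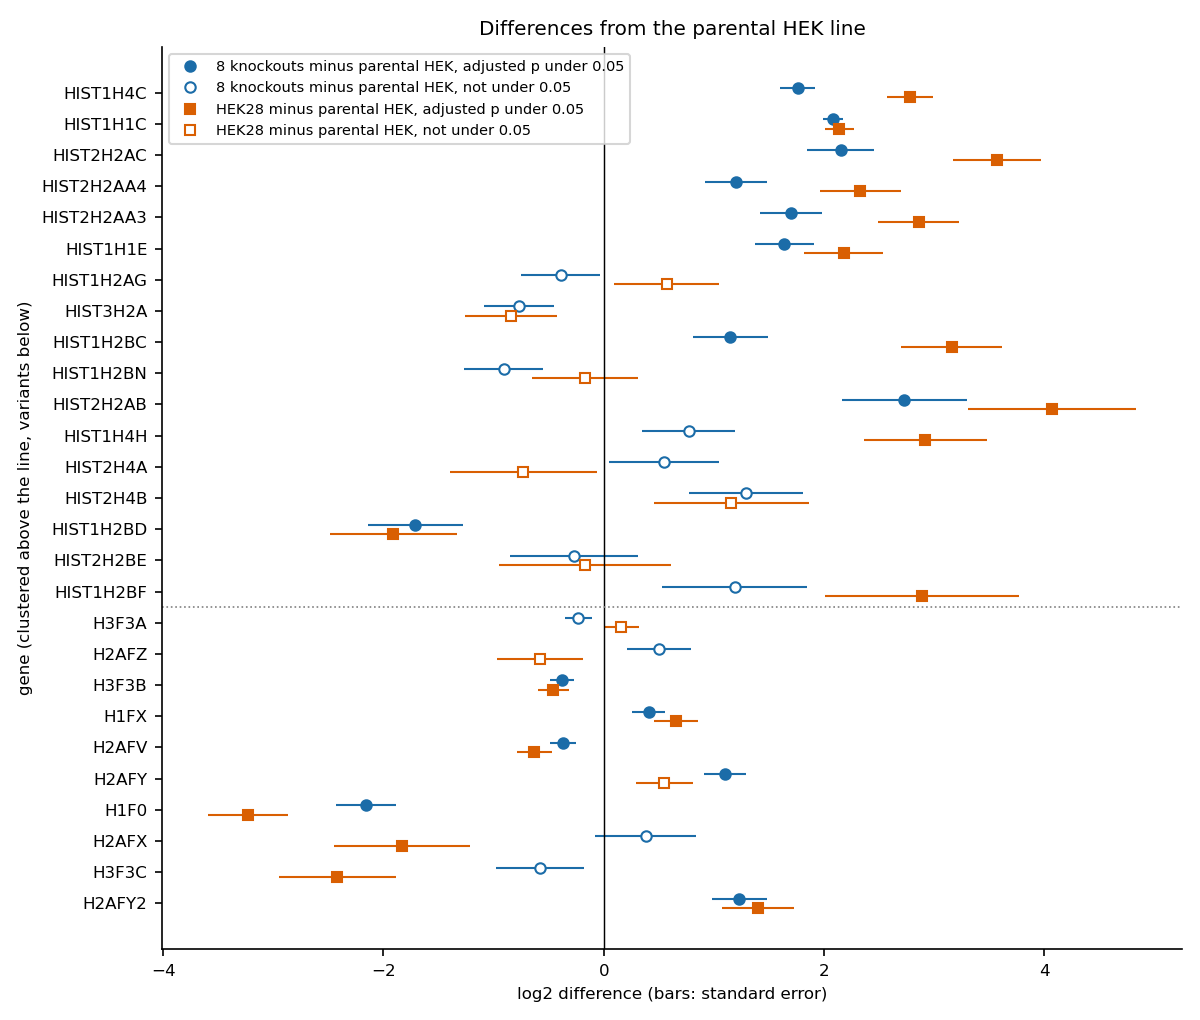
Log2 difference from the parental line for the 27 tested histone genes, ordered within each class by mean level, for the 8 knockouts together (blue circles) and HEK28 (orange squares); bars are standard errors from limma and filled symbols passed at an adjusted p under 0.05. HIST1H1C has nearly the same difference in both, 2.08 and 2.14, and H1F0 lies far below 0 in both, at -2.16 and -3.23.

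HEK28 itself differed from the parental line in 11 of the 17 tested clustered genes, 10 higher and 1 lower, and in 7 of the 10 variants, 2 higher and 5 lower; over all genes 31.7% passed, 16.6% higher and 15.1% lower. The comparison shares the parental libraries with the one above, and its values are set beside those and not counted as a second test. Its calls may be liberal: in simulated data 31 of 120 calls in this comparison were of unchanged genes. That simulation changed few of 11373 genes and gave all genes 1 spread, whereas the real comparison called 3605 genes. Its share of unchanged genes therefore does not carry over to the real calls. HIST1H4C was at 12.52, 12.36 and 11.55 in HEK28, 2.78 ± 0.21 above the parental line (adjusted p = 9.93e-10, limma), and HIST1H1C was at 9.12, 9.17 and 8.88, 2.14 ± 0.13 above (adjusted p = 9.01e-12). HIST2H2AC (8.06, 7.48 and 5.73) was 3.57 ± 0.40 above and HIST1H2BC (7.02, 6.27 and 4.77) 3.16 ± 0.46 above. In all of these the third HEK28 library was the lowest. Without libraries 1 and 2, where HEK28 rests on 1 library whose spread is taken from the other groups, 11 members passed in place of 18, and 9 of them were among the 18. HIST1H4C, HIST1H1C, HIST2H2AA3, HIST2H2AC, HIST1H2BC and H1F0 passed in all 38 alternatives run. Over those alternatives the smallest differences were 2.19, 1.96, 1.83, 2.21 and 1.91 for the 5 clustered genes, and H1F0 lay between -3.82 and -2.06. HIST2H2AB had 30 reads in HEK28 against 1 in the parental line (ratio 42.4, 95% exact counting interval 7.04 to 1730), HIST1H2BF 17 against 2 (ratio 12.0, interval 2.85 to 107), and HIST1H2BD 3 against 24 (ratio 0.177, interval 0.034 to 0.581).

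H2AFX and H2AFZ separated the HEK28 libraries from each other. H2AFX was at 2.99, 3.25 and 6.86 in the 3 HEK28 libraries, which is 1, 4 and 40 reads, against 5.93, 6.09 and 6.55 in the parental line. It fell by 1.83 ± 0.62 in HEK28 on the log2 scale (adjusted p = 0.0266, limma), yet without libraries 1 and 2 the difference was 0.67. H2AFZ was at 8.17, 8.32 and 10.39, so that libraries 1 and 2 were below and library 3 above every parental library (9.35, 9.59 and 9.67). LMAN1 knockout library 2 showed the same combination of low H2AFX (5.01, against 6.91 and 7.04 in the other two) and low H2AFZ (8.74, against 10.29 and 10.41) beside high HIST1H4C (12.38, against 11.64 and 11.74). HEK28 library 1 was the shallowest of all 30 and had 5068 genes at 0 reads, while LMAN1 library 2, at 739704 reads, was close to the median depth. The part of depth or RNA quality in these values was not tested.

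**Figure D3:**
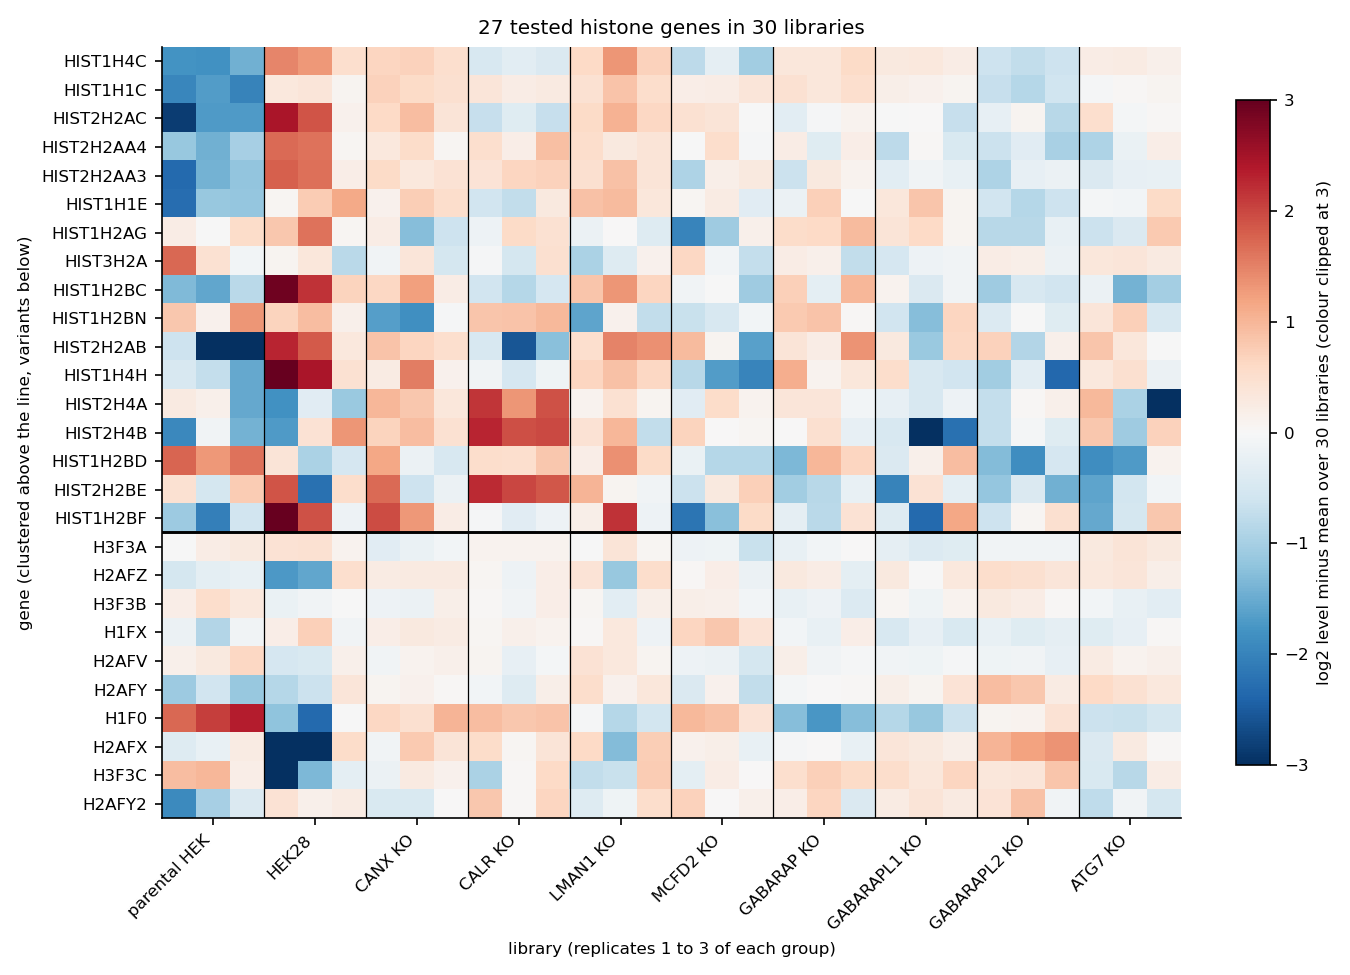
Log2 levels of the 27 tested histone genes minus each gene's mean over the 30 libraries (red higher, blue lower, colour clipped at 3), with libraries in columns by group and the clustered genes above the heavy line. The first 2 columns of HEK28 are red for most clustered genes and blue for H2AFX and H2AFZ, the third HEK28 column is paler, and the parental columns are blue for HIST1H4C and HIST1H1C and red for H1F0.

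Against HEK28, the 8 knockouts together were lower in 6 of the 17 tested clustered genes and higher in none, while 6 of the 10 variants passed, 5 higher and 1 lower; over all genes 24.6% passed, 17.4% higher and 7.24% lower. The median difference was -0.97 over the clustered genes and 0.40 over the variants, against 0.11 over all genes. HIST1H4C fell by 1.02 ± 0.16 and HIST2H2AC by 1.41 ± 0.30 in the knockouts, and HIST1H2BC and HIST1H4H fell by 2.01 ± 0.34 and 2.15 ± 0.42. H2AFX was 2.20 ± 0.46 higher and H2AFZ 1.08 ± 0.29 higher. The sizes of these differences depended on HEK28 libraries 1 and 2. Without both, HEK28 rests on 1 library. HIST1H4C was then at -0.43, HIST2H2AC at -0.05, HIST1H2BC at -0.76 and HIST1H4H at -0.59. The differences of H2AFX, H2AFZ, H1F0 and H2AFY turned to -0.29, -0.35, -0.10 and -0.19. Without library 1 alone, 4 members passed by limma in place of 12. With voom weights on all libraries 9 members passed, where 1231 of 11373 genes did. HIST1H1C did not pass, with 9.12, 9.17 and 8.88 in HEK28 and a knockout median of 9.05.

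When each knockout was set against HEK28, the same 3 HEK28 libraries entered each comparison. Calls among the 27 members numbered 16 in GABARAPL2 (26.1% passed, 7.74% lower), 11 in MCFD2 (17.8% passed, 7.39% lower), 10 in CALR (18.1% passed, 6.15% lower), 10 in GABARAPL1 (9.71% passed, 2.78% lower), 9 in ATG7 (12.4% passed, 4.2% lower), 7 in CANX (18.7% passed, 6.42% lower), 3 in GABARAP (5.64% passed, 1.64% lower) and 1 in LMAN1 (5.35% passed, 0.95% lower), where the percentages are the shares of all tested genes that passed and that passed as lower in the knockout. Of these 67 calls 39 were of clustered genes, and 37 of the 39 were lower in the knockout; HIST2H4A and HIST2H4B in the CALR knockout were the exceptions, 2.88 ± 0.67 and 2.06 ± 0.70 higher (adjusted p = 0.00494 and 0.0421, limma). The number of calls fell to 6 without HEK28 libraries 1 and 2, to 28 without library 1 and to 31 without library 2, rose to 116 without library 3, and was 0 when limma was fitted to the 6 libraries of each comparison alone, where 58 of the 216 tests had an unadjusted p under 0.05. With voom weights the number was 57. Over all 11374 genes, the fits to 6 libraries called 0 to 13 genes per comparison. In those fits 834 to 2854 genes had an unadjusted p under 0.05, so the loss of calls was not particular to histone genes. The levels of single knockouts are therefore described against each other below, where no HEK28 library enters the differences. The HEK28 libraries still enter the shared spread behind the SE and p-values given there. Fitted to the knockout libraries alone, each knockout against the other 7 gave 32 calls in place of 15, with all 15 among them. The F test among the knockouts then gave 16 in place of 9. Members given below as not passing are therefore subject to this limit.

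Among the 8 knockouts, 6 of the 17 tested clustered genes (HIST1H1C, HIST1H4C, HIST2H4B, HIST1H2BC, HIST1H4H and HIST1H2BN) and 3 of the 10 variants (H1F0, H1FX and H3F3A) differed by limma's F test, against 13.1% of all genes. HIST1H1C (adjusted p = 3.44e-06), HIST1H4C (2.76e-05) and H1F0 (0.000209) passed in all 38 alternatives run. Each knockout set against the mean of the other 7 gave 15 calls of members, 11 of clustered genes and 4 of variants, in every knockout except ATG7. Of all genes 0.352% to 4.99% passed in these comparisons. With voom weights there were 46, among them 14 of the 15. Over all genes 170 to 2878 passed per comparison with voom weights, against 40 to 568 without them. The voom setting also changed the library scaling, and which part of it moved the counts was not tested.

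The GABARAPL2 knockout had low HIST1H1C and low HIST1H4C. GABARAPL2 encodes an ATG8-family protein that helps build autophagosomes. HIST1H1C was at 8.11, 7.95 and 8.19, below every other knockout library, the lowest of which was at 8.77, and fell by 1.05 ± 0.09 against the other 7 knockouts (2.07-fold lower, adjusted p = 8.2e-07, limma). HIST1H4C was at 10.43, 10.31 and 10.43 and fell by 0.84 ± 0.16 (adjusted p = 0.00312); the MCFD2 libraries overlapped this range. These 2 of 17 clustered genes were the calls of this knockout, with 0 of 10 variants, where 4.1% of all genes passed, and the median difference over the clustered genes was -0.59 against 0.06 over all genes. HIST1H1E (-0.91 ± 0.27, adjusted p = 0.0558, limma) and HIST1H4H (-1.25 ± 0.42, 0.0956) were lower in estimate without passing. H2AFX, at 7.34, 7.52 and 7.67, lay above every other knockout library, whose highest value was 7.09, yet its difference of 1.07 ± 0.47 did not pass (adjusted p = 0.217, limma).

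In the MCFD2 knockout HIST1H4C was low as well, and HIST1H1C did not pass. MCFD2 is the soluble partner of LMAN1 in a cargo receptor for factor VIII. HIST1H4C was at 10.27, 10.78 and 10.00 and fell by 0.89 ± 0.16 against the other knockouts (adjusted p = 0.00161, limma), while HIST1H1C, at 9.00, 9.03 and 9.16, was near the knockout median of 9.05. HIST1H4H, a second H4 gene, was at 2.40, 1.55 and 1.26 and fell by 1.56 ± 0.42 (adjusted p = 0.0308). Both linker histone variants were higher: H1FX, at 9.66, 9.82 and 9.44, was above all other knockout libraries (difference 0.69 ± 0.15, adjusted p = 0.00825), and H1F0 was 0.99 ± 0.27 higher (adjusted p = 0.0314). Over all genes 4.99% passed in this comparison. HIST1H4H and H1F0 lost the call without any 1 of the 3 MCFD2 libraries, and H1FX without library 1 or library 2.

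The LMAN1 and CANX knockouts stood at the other end for the same genes. LMAN1 is the membrane part of that receptor, and CANX encodes calnexin, a lectin chaperone of the endoplasmic reticulum. In the LMAN1 knockout HIST1H4C was at 11.64, 12.38 and 11.74 and HIST1H1C at 9.26, 9.65 and 9.33. They were 0.91 ± 0.16 and 0.47 ± 0.09 higher than in the other 7 (adjusted p = 0.00311 and 0.0126, limma; 1.04% of all genes passed). Without LMAN1 library 2 both calls were lost, with differences of 0.68 and 0.35 and adjusted p-values of 0.13 and 0.252, and the HIST1H1C call was also lost after quantile normalisation. In the CANX knockout HIST1H1C was at 9.48, 9.37 and 9.28 and 0.43 ± 0.09 higher (adjusted p = 0.0187; 1.38% of all genes passed), a call lost without library 1 or library 2. HIST1H4C there was at 11.69, 11.75 and 11.56 with a difference of 0.62 ± 0.16 that just missed the threshold (adjusted p = 0.0501, limma).

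**Figure D4:**
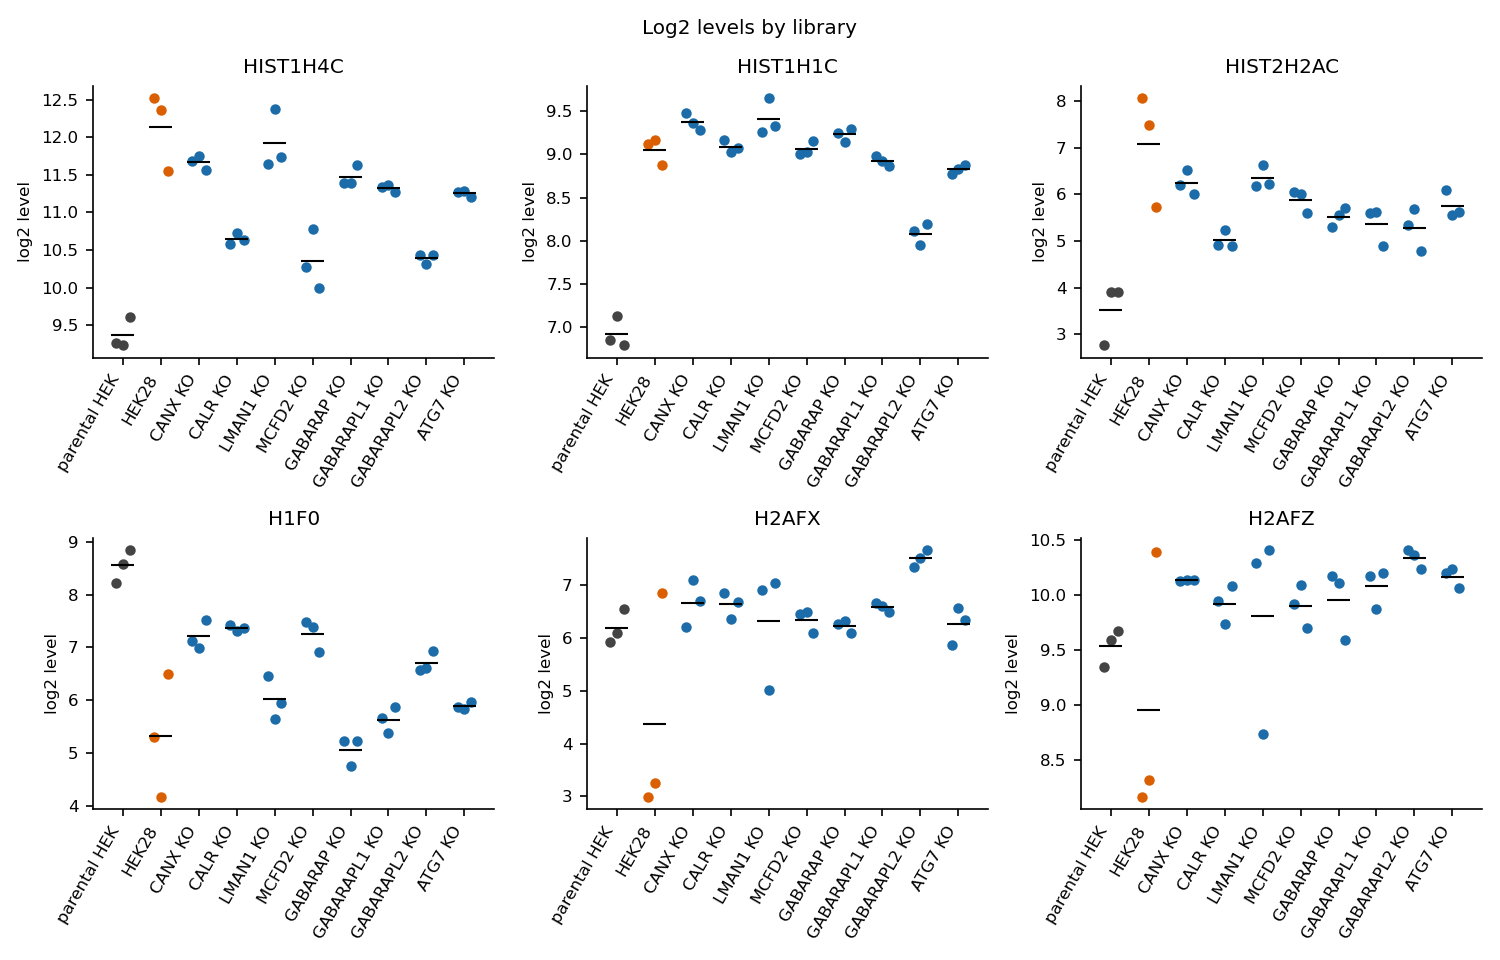
Log2 levels of 6 histone genes in every library, with a line at the mean of each group of 3 (parental line grey, HEK28 orange, knockouts blue). HIST1H1C is lowest among the knockouts in GABARAPL2, HIST1H4C in GABARAPL2 and MCFD2, and H2AFX and H2AFZ show HEK28 libraries 1 and 2 and LMAN1 library 2 below the other libraries of their groups.

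In the CALR knockout the 3 calls among the tested clustered genes were of chromosome 1 genes. CALR encodes calreticulin, a lectin chaperone of the endoplasmic reticulum. HIST2H2BE, an H2B gene, was at 4.56, 4.31 and 4.18 in CALR (17, 28 and 60 reads), above all 21 other knockout libraries (0.30 to 4.01), a difference of 2.37 ± 0.59 (5.17-fold, adjusted p = 0.0277, limma). The H4 genes HIST2H4A and HIST2H4B, which share sequence and cannot be told apart with certainty, were at 5.36, 4.54 and 5.13 and at 5.40, 5.05 and 5.10. Both lay above every other knockout library, with differences of 1.83 ± 0.50 (adjusted p = 0.0477) and 2.21 ± 0.53 (adjusted p = 0.0221). HIST2H2AC, which shares its promoter stretch with HIST2H2BE (printed above), was at 4.92, 5.24 and 4.90 and did not pass, with a difference of -0.75 ± 0.30 (adjusted p = 0.21). Its neighbour HIST2H2AB was at 2.89, 0.80 and 2.12, with a difference of -1.81 ± 0.58 (adjusted p = 0.0944). HIST1H4C, the main H4 gene, was at 10.58, 10.73 and 10.63 with a difference of -0.55 ± 0.16 (adjusted p = 0.057), and its share of the clustered reads was 62.6% ± 2.56 in CALR (SD, n = 3). That share was as low in MCFD2, at 60.8% ± 6.6, and the means of the other 6 knockouts were 72.9% to 77.8%. Among the untested genes of chromosome 6, HIST1H2AC, an H2A gene, was at 3.51, 3.43 and 2.93 in CALR (8, 15 and 25 reads) and HIST1H3H, an H3 gene, at 3.33, 3.00 and 3.37 (7, 11 and 34 reads). Both were above all 21 other knockout libraries, so high values in CALR were not limited to chromosome 1; these 2 genes were chosen after their values were seen. H1F0 was 1.11 ± 0.27 higher (7.42, 7.32 and 7.37, adjusted p = 0.0234). In all, 3 of 17 clustered genes and 1 of 10 variants passed, where 2.87% of all genes did. HIST2H2BE, HIST2H4A, HIST2H4B and H1F0 each lost the call when any 1 of the 3 CALR libraries was left out, and HIST2H4A passed in 13 of the 38 alternatives run.

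**Figure D5:**
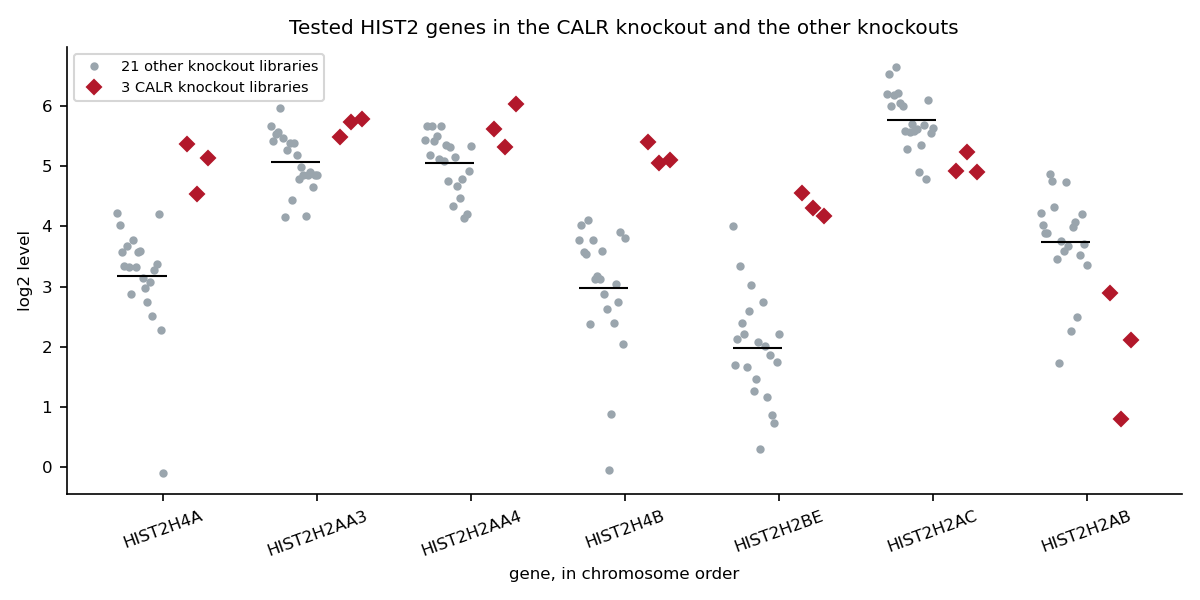
Log2 levels of the 7 tested HIST2 genes, in chromosome order, in the 3 CALR knockout libraries (red diamonds) and the 21 other knockout libraries (grey points, line at their mean). HIST2H4A, HIST2H4B and HIST2H2BE lie above all other knockout libraries in CALR, and the CALR values of HIST2H2AC and HIST2H2AB lie below the mean of the others.

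H1F0 varied most among the abundant variants. Its levels were 5.23, 4.75 and 5.22 in the GABARAP knockout, where it fell by 1.52 ± 0.27 against the other 7 (2.87-fold lower, adjusted p = 0.00221, limma; 2.67% of all genes passed). All 3 values were below every other knockout library, the lowest of which was at 5.37 in GABARAPL1, and the call held in all 38 alternatives run. The GABARAPL1, ATG7 and LMAN1 knockouts were at 5.37 to 6.46, GABARAPL2 at 6.58 to 6.94, and MCFD2, CANX and CALR at 6.92 to 7.52, all below the parental 8.23 to 8.85. In the GABARAPL1 knockout the only call was HIST2H4B (7, 0 and 2 reads, difference -2.40 ± 0.53, adjusted p = 0.0402; 0.352% of all genes passed), which passed in 11 of 38 alternatives. No member passed by limma in the ATG7 knockout, where 1.42% of all genes did. There 7 of the 27 had an unadjusted p under 0.05, and with voom weights 1 passed. H3F3A, at 10.62, 10.71 and 10.61, had the smallest adjusted p there (difference 0.44 ± 0.12, adjusted p = 0.0677, limma).

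How alike the clustered genes were across the 8 knockouts was described by the correlation of their group means with those of HIST1H4C. Over these 8 means r was 0.94 for HIST1H4H, 0.88 for HIST1H1E, 0.79 for HIST1H2BC, 0.73 for HIST2H2AB, 0.66 for HIST1H1C, 0.64 for HIST1H2BF, 0.61 for HIST2H2AC, 0.54 for HIST1H2BD, 0.44 for HIST2H2AA3, 0.39 for HIST1H2AG and 0.27 for HIST2H2AA4, and it was -0.09 for HIST2H2BE, -0.11 for HIST2H4A, -0.15 for HIST2H4B, -0.35 for HIST1H2BN and -0.47 for HIST3H2A. The points share libraries and depth, and several of these genes have few reads, so the values are a description.

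Genes that supply or handle histones were called in both directions. Against the parental line, where 37.2% of all genes passed, 12 of 20 tested genes for the transcription and 3' processing of replication histone mRNA passed in the knockouts (7 higher, 5 lower, median 0.19), 16 of 27 histone chaperones and exchange factors (11 higher, 5 lower, median 0.10) and 12 of 29 S phase genes (7 higher, 5 lower, median 0.17). The median over all genes was 0.09. Both FACT subunits, which open and rebuild nucleosomes, were higher, SSRP1 by 1.03 and SUPT16H by 1.34, as were the H2A-H2B chaperone NAP1L1 by 1.06 and NPM1, a nucleolar histone chaperone, by 1.28 (adjusted p = 6.17e-10, 3.76e-07, 2.8e-07 and 6.48e-10, limma). The licensing factor CDT1 fell by 1.16 and the ubiquitin ligase adaptor DTL fell by 1.22 (adjusted p = 1.23e-06 and 6.1e-06), while RRM1, a ribonucleotide reductase subunit, was 1.70 higher. ZCCHC6, a uridylating enzyme of histone mRNA decay, fell by 1.45 and ZNF473, a component of the U7 complex, fell by 1.92.

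Where the clustered genes were lowest among the knockouts, in GABARAPL2, SLBP was highest. SLBP was 1.24 above the other 7 knockouts (adjusted p = 0.0124, limma), with a mean of 6.76 ± 0.16 (SD, n = 3) against 5.23 to 5.89 for the other group means, and it was the only 1 of the 20 processing genes to pass there, where 4.1% of all genes did. Of 27 chaperones 3 passed: NAP1L1 was 0.77 higher (adjusted p = 0.000556, limma), while the remodeller subunit EP400 fell by 0.70 and SUPT16H fell by 0.57 (adjusted p = 0.0286 and 0.0403). Of 29 S phase genes 4 passed in GABARAPL2, with the replication clamp PCNA 0.85 higher and CDT1, UNG and MCM3 lower by 0.56 to 0.61 (differences of -0.61, -0.61 and -0.56). In MCFD2, the other knockout with low HIST1H4C, where 4.99% of all genes passed, the calls were 1 of 20 processing genes, 4 of 27 chaperones and 2 of 29 S phase genes. CDK2 was 0.61 higher (adjusted p = 0.0395, limma) and SLBP, at 5.40 ± 0.18, was not among the calls. EP400 was 0.73 higher, and NPM1, the replication-coupled chaperone subunit CHAF1A and NAP1L1 fell by 0.42, 0.51 and 0.42 (adjusted p = 0.0191, 0.0146, 0.0405 and 0.0463). Of the replicative helicase subunits, MCM7 was 0.49 higher and MCM3 fell by 0.70 (adjusted p = 0.00636 and 0.00827). In CALR the transcription factor E2F1 fell by 0.75 (adjusted p = 0.0317), and in GABARAP thymidylate synthase, TYMS, fell by 1.49 (adjusted p = 0.000265). In LMAN1 and CANX, the knockouts with the highest HIST1H4C, 0 of the 20 processing genes and 0 of the 29 S phase genes passed by limma, where 1.04% and 1.38% of all genes did, so that lists of this size would hold few calls in any case. The counts at an unadjusted p under 0.05 were 6 and 4 in LMAN1 and 2 and 3 in CANX, and with voom weights 4 and 2 passed in LMAN1 and 0 and 1 in CANX.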

How the data were processed

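Counts of 3' RNA-seq reads entered a deposited table of log2 values for 16975 genes in 30 libraries. FastQC, cutadapt, TopHat2, Bowtie and hg38 are named in the submitters' processing notes; how reads were counted and normalised, with which annotation and strand setting, is not given in the sources used here. The deposited log2 values equal log2 of reads plus 0.5 over a library size and a divisor per gene. Whole reads were recovered for 16923 genes (100.0% of 504098 values within 0.2 read). The divisor did not follow exon length (Spearman 0.01 across 16886 genes, which are not independent), so it was removed from printed levels; differences between libraries stay the same.

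limma 3.58.1 (R 4.3.3) was fitted to the deposited log2 values of all 30 libraries, with 1 coefficient per group, a mean-variance trend, robust moderation, no replicate block and Benjamini-Hochberg adjustment within each comparison over 11374 genes. The fit was tested on simulated data with few changed genes and 1 spread for all genes. For HEK28 against the parental line it called unchanged genes more often than the threshold allows, and with voom weights it did not. Its calls there may thus be liberal, by an amount that the simulation cannot give. Alternatives were quantile normalisation, no filter, a further pseudocount of 1, voom weights, only the libraries compared, a replicate block, leaving out libraries, and removal of the gene divisor, the last chosen after seeing the data. Gene positions come from GENCODE 29. The replicate numbers did not pair the libraries (median correlation of same-numbered libraries -0.01, from -0.25 to 0.38). No 2 replicates agreed within sampling noise (lowest chi-square per degree of freedom 1.52). Named were the most abundant members, those that passed, and those with the smallest F test p. Members and lists were chosen with earlier results of these data known. Intervals cover counting error only.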

Additional observations from a re-analysis of the deposited data

How the results depend on the processing

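Of 39 calls of members in comparisons without HEK28, 17 passed in every alternative run and none changed sign. Of 97 calls in comparisons with HEK28, 15 changed sign, all without HEK28 replicates 1 and 2. Those were, for the 8 knockouts together against HEK28, H2AFY at -0.19, H1F0 at -0.10, H2AFZ at -0.35 and H2AFX at -0.29. For ATG7 against HEK28 they were HIST2H2AC at 0.03, H2AFZ at -0.23 and H2AFX at -0.60, for MCFD2 HIST2H2AC at 0.15 and H2AFX at -0.52, and for CANX H2AFZ at -0.26 and H2AFX at -0.20. H2AFX was at -0.22 in CALR and -0.28 in GABARAPL1, H2AFZ at -0.06 in GABARAPL2, and H2AFX at 0.67 for HEK28 against the parental line. In that setting HEK28 rests on 1 library. The members passed numbered 67 (each knockout against HEK28), 15 (each against the other 7), 18 (HEK28 against the parental line), 12 (8 knockouts against HEK28) and 9 (any difference among the knockouts). Fitting only the libraries compared gave 0, 32, 6, 12 and 16 for the same comparisons, and voom weights gave 57, 46, 15, 9 and 19. Calls over all genes moved as well. For HEK28 against the parental line, 3605 became 544 with only the libraries compared and 2323 with voom weights. For any difference among the knockouts, 1488 became 3009 and 3529. The counts therefore do not show how stable histone genes are beside other genes.

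Leaving out 1 library gave 28 to 116 calls for each knockout against HEK28, 10 to 28 for each against the other 7, 14 to 19 for HEK28 and for the 8 knockouts against the parental line, 4 to 17 for the 8 knockouts against HEK28 and 6 to 14 among the knockouts. The highest counts came without HEK28 replicate 3; the lowest counts against HEK28 came without HEK28 replicate 1. The cause was not tested. A replicate block, although the numbers did not pair the libraries, gave 65, 17, 18, 15, 11 and 8 calls in place of 67, 15, 18, 15, 12 and 9. Depth limits the parental and HEK28 values of genes with few reads, since their 6 libraries had 180015 to 711434 reads.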

Other observations

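Reads were also listed under histone symbols left out of the set. H3F3AP4 had 4285 reads over the 30 libraries, H3F3AP6 2586, H3F3BP1 2399, HIST1H3PS1 943, H1FX-AS1 173 and HIST2H2BC 70.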
